A study of Homo sapiens with 3 samples.

Results

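RNA levels of the established bladder cancer line 5637, which is of human origin, were compared between 2 libraries made after siRNA against CDCA3, labelled siCDCA3-1 and siCDCA3-2. Each gene was represented by the RefSeq transcript with the most counts over the series, and a gene was taken as measured when its mean RPKM over all 3 libraries reached 1. By this rule 10153 of 19225 genes were measured. The other library of the series, siNC, came from cells given a control siRNA. It entered the choice of transcript and the filter, and its value is printed beside each gene, but it was not a reference for any difference.

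All 3 libraries carry the genotype label WT and came from cells grown in RPMI 1640 with fetal bovine serum and transfected with a lipid reagent. Whether the numbers 1 and 2 stand for different siRNA sequences against CDCA3 or for repeat cultures is not stated in the labels. Different siRNAs, different cultures and different library preparations therefore cannot be told apart. There was 1 library a side, so no difference below has a replicate check and no p-value is given. Intervals on ratios are exact 95% binomial (Clopper-Pearson) intervals of the read counts and cover counting error only. RPKM is a read count scaled by transcript length and by the total of the library. The log2 difference is log2(RPKM + 1) in siCDCA3-2 minus log2(RPKM + 1) in siCDCA3-1, a scale that understates the difference of low genes. Values listed without library names are RPKM in the order siNC, siCDCA3-1, siCDCA3-2.

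CDCA3 is a cell division cycle associated protein, also known as trigger of mitotic entry, which acts with the SCF ubiquitin ligase on the mitosis-inhibiting kinase WEE1. MYBL2 is a transcription factor that drives genes of the G2 and M phases and is commonly high in proliferating tumour cells. A small interfering RNA lowers its target through cleavage of the matching mRNA, and it can also lower other mRNAs that match its seed in part. Growing cells devote much of their RNA synthesis to ribosome assembly, nucleotide supply and protein folding, while epithelial cells under inflammatory signals make S100 proteins, complement, guanylate-binding proteins and MHC class I.

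CDCA3 itself (NM_031299.6, GRCh38 chr12:6844798-6851286) had RPKM of 5.52, 0.574 and 1.40. Its level in siCDCA3-2 was 2.44 times that in siCDCA3-1 (counting interval 1.97 to 3.04), from 406 and 108 counts, so the target was low in both libraries and lower in siCDCA3-1. MYBL2 had RPKM of 76.6, 51.6 and 76.0, and was 1.47 times as high in siCDCA3-2 as in siCDCA3-1 (1.45 to 1.5).

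The libraries held 40420563 (siCDCA3-1) and 62389922 (siCDCA3-2) gene-level counts. The totals behind the deposited RPKM were larger, at 104153360 and 160640877, so each RPKM is smaller than gene-level totals would give. Keratins of the epithelium were abundant in both: KRT19 had RPKM of 822 and 643, KRT7 356 and 377, KRT5 218 and 200 in siCDCA3-1 and siCDCA3-2. Of the uroplakins, markers of mature urothelium, UPK1A and UPK3A were at 0.0273 or below in both, UPK2 was at 0.802 and 0.167, and UPK3B, which is described further below, was at 6.47 and 0.651. Leukocyte markers had a summed RPKM of 2.73 and 1.64, with 1 of 9 measured, and endothelial markers 0.106 and 0.0831, with 0 of 5 measured. Fibroblast markers summed to 13.9 and 5.79, with 2 of 7 measured, and their part in the matrix genes described below was not tested. In bulk RNA, fewer cells of a kind and less RNA per cell cannot be told apart.

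Base composition moved with the difference between the libraries. Among 9831 measured genes with a transcript sequence, the Spearman correlation across genes between GC content and the log2 difference was -0.399, against -0.044 for transcript length and -0.009 for mean RPKM. Genes are not independent replicates, and all points share the same pair of libraries. The genes were divided into 5 equal groups by GC content. In the group with the lowest (31.97% to 41.8%) the median log2 difference was 0.43 and 10.3% were at least 2-fold higher in siCDCA3-2. In the group with the highest (59.3% to 75.6%) the median was -0.12 and 2.49% were. Of the counts in these 9831 genes, the lowest-GC group took 10.6% in siCDCA3-1, 12.1% in siNC and 15.3% in siCDCA3-2. For this reason each list below also has a GC-adjusted median, in which the median difference of genes of like GC content was subtracted. Among the genes named below as lists or families are described, NPM1, POLR1B, RRN3, EIF2S1, EEF1E1, HSP90AA1, CCT8, VBP1, PSMD12, SEC61G, SPRY2, IL1A, HIST1H2BK and BCL2L1 were past 2-fold as deposited and not after that adjustment. ENO1 was past 2-fold only after it.

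**Figure D1:**
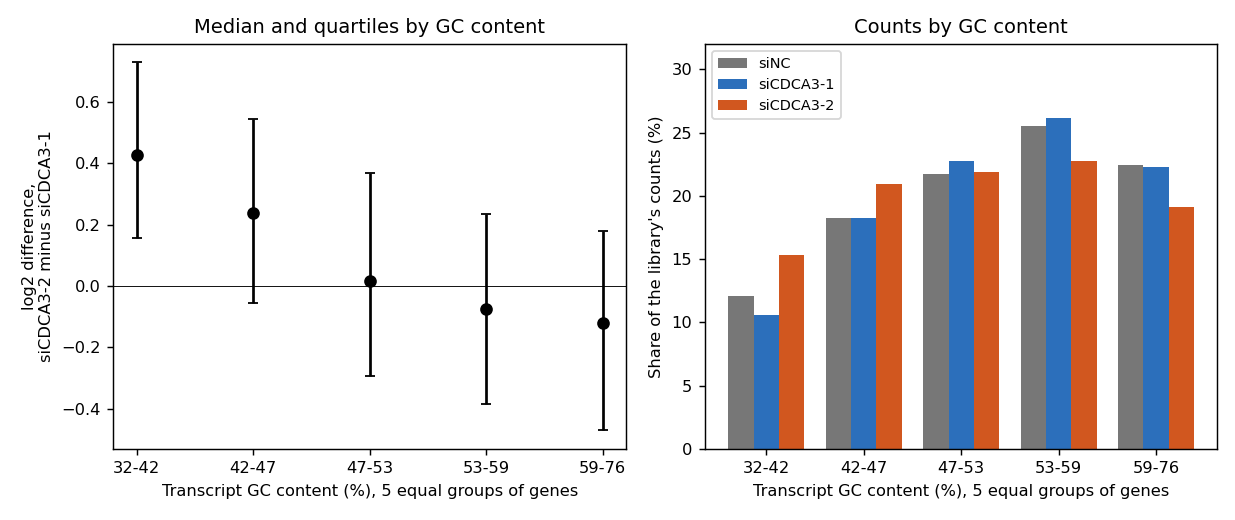
The left panel plots the median log2 difference (siCDCA3-2 minus siCDCA3-1, point) and its quartiles (bar) for 5 equal groups of genes ordered by transcript GC content. The right panel plots the share of each library's counts over the same genes, in percent, taken by each group: the medians run from 0.43 in the lowest-GC group to -0.12 in the highest, and siCDCA3-2 has the largest share of the 3 libraries in the lowest-GC group.

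Of the 10153 measured genes, 498 were at least 2-fold higher in siCDCA3-2 than in siCDCA3-1 (4.9% of all measured) and 378 were at least 2-fold lower (3.72%). The large differences were mostly in the lower direction: 13 genes were 4-fold higher and 59 were 4-fold lower. Any higher value in siCDCA3-2 was seen in 5872 genes (57.8%), and the median log2 difference of all genes was 0.10, with quartiles of -0.24 and 0.44. TMM scaling moved that median to -0.05 and the split to 294 higher and 527 lower. Median-of-ratios scaling gave 285 and 540, quantile normalization 363 and 457, and the GC adjustment 294 and 385. The list medians below are therefore to be read against the all-gene median of 0.10 as deposited and of 0.00 after GC adjustment.

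Counting error was small beside these differences. The interval of the RPKM ratio lay wholly beyond 2 in 492 of the 498 higher genes and in 378 of the 378 lower genes. The genes were called from these same counts, and with 1 added to each RPKM a call already needs a ratio above 2. Of 260 higher genes with several transcripts past the filter, 260 had all transcripts on the higher side and 224 had all of them past 2-fold. For the lower genes these numbers were 217, 217 and 196. Transcripts of a gene can share reads, so their agreement is not an independent check. Just inside the 2-fold line were SEPTIN10 (4.37 in siCDCA3-1 and 9.73 in siCDCA3-2) and ROBO1 (6.01 and 2.49), and just outside it KCNJ15 (5.11 and 11.2) and KDM5B (7.85 and 3.43). ZNF75D, at a mean RPKM of 1.00054 over the 3 libraries, was just inside the filter, and ZNF175, at 0.99975, just outside.

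**Figure D2:**
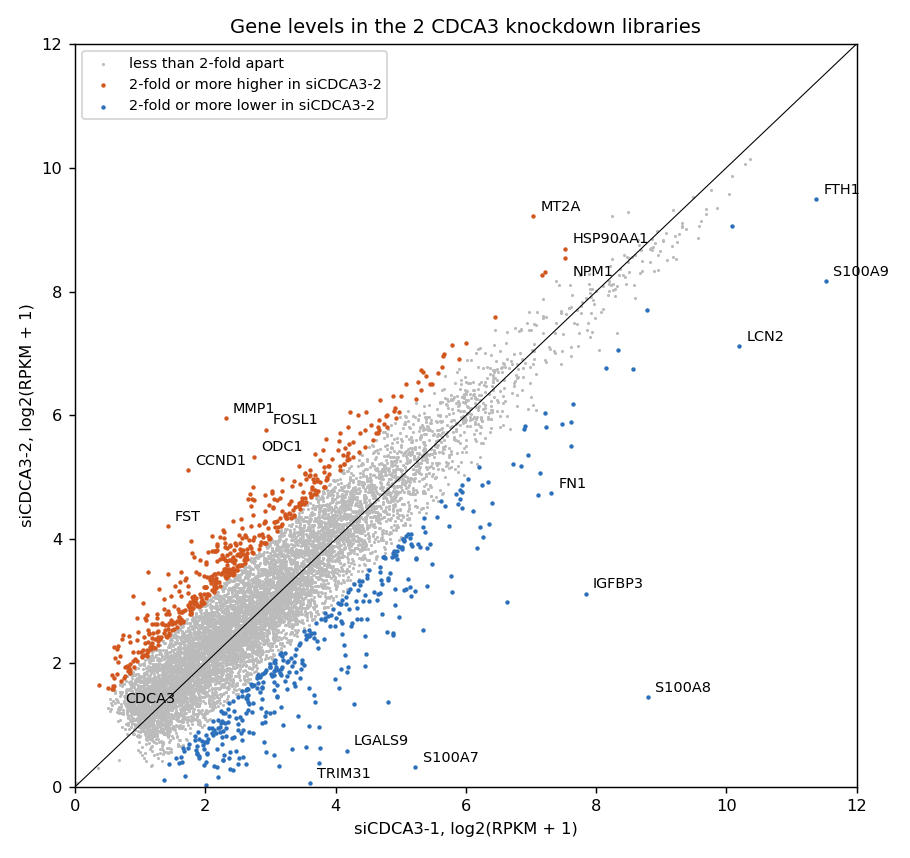
Each point is 1 of 10153 measured genes, with log2(RPKM + 1) in siCDCA3-1 on the horizontal axis and in siCDCA3-2 on the vertical axis, and the line marks equal levels. The 498 genes 2-fold or more higher in siCDCA3-2 are orange and the 378 lower ones blue, with S100A8, S100A7 and IGFBP3 farthest below the line and MMP1, CCND1 and FOSL1 farthest above it.

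The genes with the largest higher values in siCDCA3-2 included a secreted collagenase, a G1 cyclin and an AP-1 subunit, all from chromosome 11. MMP1, interstitial collagenase (NM_002421.3, GRCh38 chr11:102789919-102798160), had RPKM of 3.96 in siCDCA3-1 and 60.9 in siCDCA3-2, with 7.64 for siNC, a ratio of 15.4 between the knockdown libraries (14.4 to 16.5). CCND1, cyclin D1 (NM_053056.2, GRCh38 chr11:69641156-69654474), had 6.12, 2.34 and 33.6, a ratio of 14.4 (13.5 to 15.3). FOSL1, the AP-1 subunit FRA1 (NM_005438.4, GRCh38 chr11:65892049-65900545), had 18.2, 6.59 and 53.6, a ratio of 8.13 (7.67 to 8.63). In RPKM, siNC lay nearer siCDCA3-1 than siCDCA3-2 for all 3 genes.

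FST, the activin-binding protein follistatin, had RPKM of 7.13, 1.68 and 17.4. ODC1, ornithine decarboxylase, the first enzyme of polyamine synthesis, had 13.2, 5.69 and 39.3. MT2A, a metal-binding metallothionein, was the most abundant of the 15 top genes with 337, 130.5 and 594.5. All of these were lowest in siCDCA3-1 and highest in siCDCA3-2. Amino acid carriers were also among the 15: SLC7A8 had RPKM of 2.24, 1.18 and 10.1, and SLC7A11, the cystine carrier, had 5.83, 0.849 and 7.46. GPAT3, an enzyme of triglyceride synthesis, had 3.61, 2.44 and 14.7. CDK6, a partner kinase of cyclin D, had 4.60, 1.68 and 9.79. The remaining members of the 15 were UBE2V2, GGCT, DDX21, NDC1 and MZT1, with log2 differences of 1.95 to 2.11. In 15 of these 15 genes siNC lay between the knockdown libraries, and after GC adjustment their log2 differences were 1.47 to 3.38.

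In the other direction the largest differences were in calgranulins and other secreted or interferon-related proteins. S100A8 (NM_001319196.1, GRCh38 chr1:153390032-153422583), a subunit of calprotectin, reached RPKM of 445 in siCDCA3-1 against 1.73 in siCDCA3-2 and 150 in siNC. The level was 257 times as high in siCDCA3-1 as in siCDCA3-2 (219 to 304), from 25028 and 150 counts. S100A9, the partner subunit (NM_002965.3, GRCh38 chr1:153357854-153361023), had 2601, 2959 and 286, a ratio of 10.3 (10.2 to 10.5). S100A7, psoriasin, had 12.9, 36.4 and 0.241. These genes share an S100 cluster on chromosome 1, and in each siCDCA3-2 was the lowest library. S100A9 alone took 0.440% of gene-level counts in siCDCA3-1 and 0.0425% in siCDCA3-2.

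IGFBP3, an IGF-binding protein (NM_001013398.1, GRCh38 chr7:45912245-45921272), had RPKM of 153, 228 and 7.69, a ratio of 29.7 in favour of siCDCA3-1 (28.6 to 30.8). LCN2, the siderophore-binding lipocalin, had 1430, 1170 and 138. TRIM31, a ubiquitin ligase, had 0.540, 11.2 and 0.0427, the last from 14 counts. For IGFBP3 and LCN2 the low library was siCDCA3-2, whereas for TRIM31 siNC was also far below siCDCA3-1. LGALS9, galectin 9, had RPKM of 1.91, 17.0 and 0.498, and PDZK1IP1 had 3.13, 7.73 and 0.265. AQP3, an aquaglyceroporin, had 65.8, 39.7 and 4.82, C15orf48 had 112, 97.9 and 6.88, and C8orf4 had 41.0, 18.4 and 1.53. Of the 15 top genes in this direction siNC lay between the knockdown libraries in 11 and above both in 4. HOTS (26.2, 27.0 and 1.59) overlaps the H19 locus on the opposite strand, and no source used here states if reads were assigned by strand, so its reads and those of H19 cannot be told apart.

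**Figure D3:**
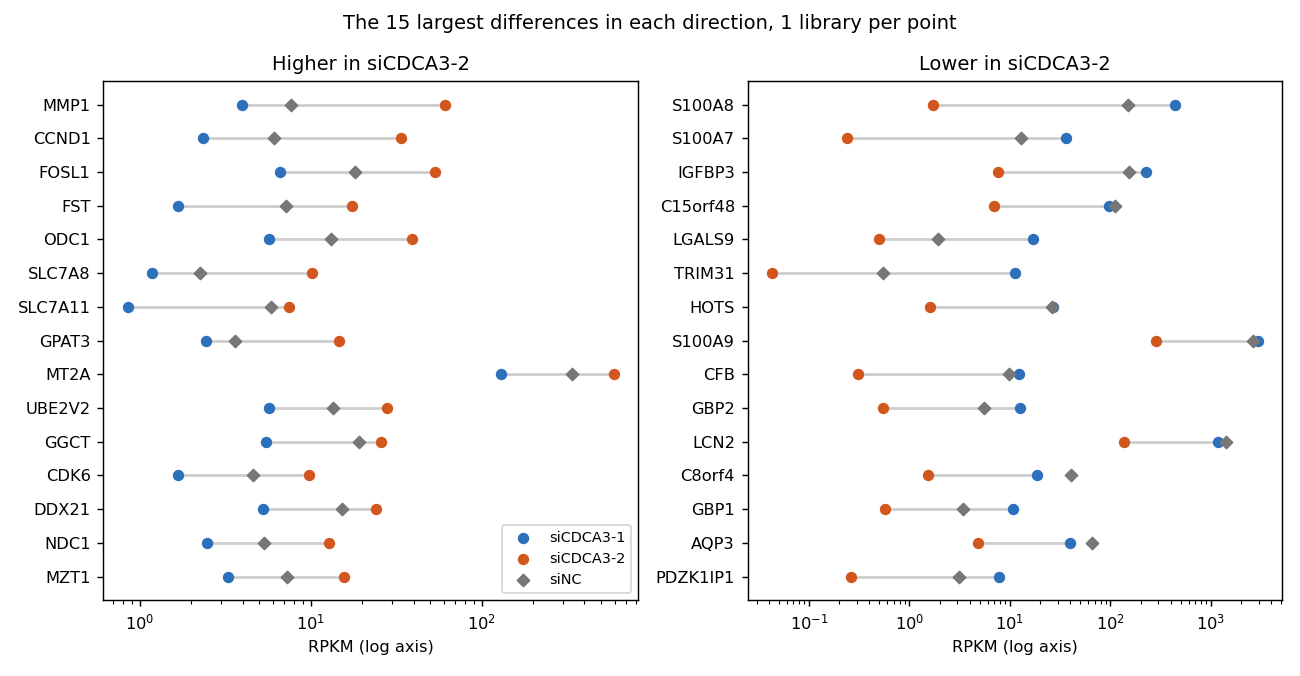
RPKM on a log axis in siCDCA3-1 (blue), siCDCA3-2 (orange) and siNC (grey diamond) for the 15 genes with the largest log2 difference in each direction, 1 library per point. On the left siNC lies between the others in 15 of 15 genes, and on the right S100A8 spans 445 in siCDCA3-1 to 1.73 in siCDCA3-2.

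Genes of ribosome biogenesis, which process ribosomal RNA and assemble the subunits, had higher values in siCDCA3-2 in 55 of 56 measured members, against 57.8% of all measured genes. At least 2-fold higher were 24 and 0 were 2-fold lower. The median log2 difference of the list was 0.94, and 0.88 after GC adjustment. NPM1, the nucleolar chaperone nucleophosmin, was the most abundant, with RPKM of 228, 184 and 371, a ratio of 2.02 (1.99 to 2.04). FBL, the nucleolar methyltransferase fibrillarin, had 97.0, 93.7 and 114. DDX21, a nucleolar RNA helicase, had 15.2, 5.29 and 24.2, the largest difference of the list (log2 2.00, ratio 4.57 with an interval of 4.39 to 4.77). WDR43, a component of the small-subunit processome, had 8.13, 4.40 and 18.6, and PUM3 had 3.43 in siCDCA3-1 and 13 in siCDCA3-2 against 8.46 in siNC. For DDX21, WDR43 and PUM3 the order was siCDCA3-1, siNC, siCDCA3-2 from low to high.

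RefSeq promoter sequences (GRCh38.p14, the 250 bases before the start site, both strands) were matched to 8381 of the measured genes and searched for 10 short motifs, chosen after the values were seen. The ETS-family sequence CCGGAAGT occurred in 17.4% of the 46 ribosome biogenesis promoters with a sequence, in 8.05% of all 8381, in 8.73% of those of the 2-fold higher genes and in 1.45% of those of the 2-fold lower genes. The E-box CACGTG, the core bound by MYC and related factors, was in 15.2% of the ribosome biogenesis promoters and 9.39% of all, and in 9.48% of the higher and 7.61% of the lower genes. A match describes letters in a window and is not a binding site. The last 120 bases before the start sites of DDX21 (chr10:68956050-68956169, plus strand) and of TOMM20 (chr1:235128838-235128957, minus strand), a mitochondrial import receptor described below, are shown 5′ to 3′ because both genes were among the largest differences of their lists and hold the ETS sequence, in capitals.
DDX21: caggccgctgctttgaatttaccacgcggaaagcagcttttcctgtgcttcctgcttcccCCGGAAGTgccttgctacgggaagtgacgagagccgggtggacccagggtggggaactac
TOMM20: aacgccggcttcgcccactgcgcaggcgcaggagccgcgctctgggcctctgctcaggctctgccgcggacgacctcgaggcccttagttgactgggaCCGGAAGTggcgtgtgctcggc

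Subunits and factors of RNA polymerases I and III, which transcribe ribosomal and transfer RNA, were higher in siCDCA3-2 in 29 of 36 measured members, with 6 past 2-fold and a median of 0.36 (0.34 GC-adjusted). POLR1B, the second-largest subunit of polymerase I, had RPKM of 2.23, 1.83 and 5.31, and RRN3, its initiation factor, had 4.08, 3.07 and 7.64. After GC adjustment the log2 difference of RRN3 was 0.71 and that of POLR1B 0.93, both under 2-fold. MYC, the growth-promoting transcription factor, had 27.5, 17.3 and 54.9, a ratio of 3.17 (3.07 to 3.28). In its dimerization network, MYC included, 5 of 11 measured members were higher, and MXD4, which pairs with MAX and opposes MYC, had 1.81, 4.43 and 1.35. MYC and MXD4 thus stood in opposite order in the 2 knockdown libraries.

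Enzymes of polyamine and nucleotide synthesis were higher in siCDCA3-2 in 27 of 27 measured members, 8 of them past 2-fold, with a median of 0.65 (0.59 GC-adjusted). SRM, spermidine synthase, had RPKM of 23.7, 21.1 and 65.4, a ratio of 3.10 (2.98 to 3.23). PAICS, an enzyme of purine synthesis, had 16.1, 8.01 and 30.5, a ratio of 3.81 (3.66 to 3.97). ODC1, given above, had the largest difference of the list. The smallest was that of OAZ1, the antizyme that inhibits ornithine decarboxylase, with 284, 229 and 238, a ratio of 1.04.

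The cytosolic ribosomal proteins did not share the direction of the genes that assemble ribosomes. As deposited 19 of 79 were higher in siCDCA3-2, 0 were 2-fold apart, and the median was -0.15 (-0.23 GC-adjusted). Under quantile normalization 39 of 79 were higher. RPLP1 had RPKM of 1071, 1048 and 762, and RPL13A had 630, 760 and 465. RPL7 was the member with the largest difference and it was higher, with 506, 358 and 624. Ribosomal protein genes have many processed pseudogenes, so shared reads make single values uncertain. Of the elongation factors, the abundant EEF1A1 had 718, 928 and 653 and EEF1G had 538, 596 and 369, both lowest in siCDCA3-2. EEF1E1, on the same list of translation factors, had 3.42, 1.89 and 5.29. Among all 42 translation factors 31 were higher, with a median of 0.29 (0.16 GC-adjusted), led by the initiation factors EIF1AX (9.39, 6.58 and 20.9) and EIF2S1 (10.4, 8.42 and 19.6).

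Mitochondrial genes encoded in the nucleus split by role. Import receptors and mitochondrial chaperones were higher in siCDCA3-2 in 29 of 31 members, with a median of 0.55 (0.52 GC-adjusted) and 5 past 2-fold. TOMM20 had RPKM of 19.7, 9.85 and 35.2, a ratio of 3.58 (3.45 to 3.71), TOMM5 had 27.3, 19.4 and 63.2, and HSPD1, the chaperonin HSP60, had 53.3, 49.1 and 123. Mitochondrial ribosomal proteins were higher in 72 of 79, with a median of 0.38 (0.33 GC-adjusted), and MRPL3 had 21.0, 12.9 and 42.6. The nuclear-encoded respiratory chain was close to the background, with 53 of 77 higher, a median of 0.16, and fewer members higher than lower (37 of 77 higher) under TMM and median-of-ratios scaling. COX6A1, a subunit of cytochrome oxidase, had 199, 164 and 128, while CYCS, cytochrome c, had 8.49, 6.06 and 17.7. Genes encoded by mitochondrial DNA were not analysed here.

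Protein folding genes were higher in siCDCA3-2. Of 30 measured heat shock proteins and cytosolic chaperones 28 were higher and 10 were past 2-fold, with a median of 0.60 (0.48 GC-adjusted). HSP90AA1 had RPKM of 200, 183 and 413, a ratio of 2.26 (2.24 to 2.28). HSPA8, the constitutive HSP70, had 65.9, 148 and 316, so that siNC lay below both knockdown libraries. Of the 14 subunits of the chaperonin TRiC and its partner prefoldin 12 were higher, with a median of 0.93 (0.70 GC-adjusted). CCT8 had 55.9, 37.7 and 91.9 and VBP1, a prefoldin subunit, had 15.1, 8.98 and 23.5.

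The proteasome list was higher in 32 of 33 members but with small steps, 1 past 2-fold and a median of 0.50 (0.42 GC-adjusted). PSMA7 had RPKM of 157, 135 and 202, and PSMD12 had 10.3, 7.57 and 16.6. The interferon-inducible catalytic subunits were not on this list and are given with antigen processing. Nuclear transport was higher in 30 of 32, with a median of 0.69 (0.44 GC-adjusted): RANBP1, which binds the GTPase RAN, had 73.0, 64.0 and 118, and IPO4, an importin, had 9.16, 8.44 and 19.3. Spliceosome and hnRNP genes were higher in 48 of 52, with a median of 0.48 (0.37 GC-adjusted), and LSM3 had 13.4, 10.5 and 32.

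Most cell cycle genes were higher in siCDCA3-2, which also held more CDCA3 mRNA than siCDCA3-1. Whether these differences are linked was not tested. Of 72 measured G2 and M phase genes 70 were higher in siCDCA3-2, 10 of them past 2-fold, and the median was 0.62. After GC adjustment the median was 0.41 and 65 members had positive values. CDK1, the mitotic kinase, had RPKM of 11.9, 7.55 and 23.8, a ratio of 3.15 (2.98 to 3.33). UBE2C, a ubiquitin-conjugating enzyme of the anaphase-promoting complex, had 69.6, 43.4 and 89.8, and CENPN, a kinetochore protein, had 2.47, 1.20 and 4.62. UBE2S, with 142, 73.7 and 135, was higher in siNC than in either knockdown library. The motif TTTGAA, the cell cycle homology region, was in 54.0% of the 63 G2 and M promoters with a sequence and in 7.82% of all, and CCAAT was in 76.2% and 35.7%. In the promoters of all 2-fold higher and 2-fold lower genes the TTTGAA shares were alike at 9.73% and 10.1%.

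Of 68 measured G1, S phase and replication genes 51 were higher, with a median of 0.49 (0.30 GC-adjusted), 8 past 2-fold higher and 1 past 2-fold lower. CCNE2, cyclin E2, had RPKM of 6.50, 3.90 and 16.3, a ratio of 4.19 (3.93 to 4.47). The abundant replication proteins did not share this difference, with PCNA at 72.6, 71.6 and 66.9 and MCM7 at 64.0, 63.4 and 59.6. Cyclins A to E were higher in 7 of 7 measured genes under each scaling tried, from CCNB2 (23.3, 18.1 and 23.2) to CCND1. The CDCA list holds CDCA3 and its relatives by name with CDC20, WEE1 and ubiquitin ligase subunits. It was higher in 11 of 13, with 0 past 2-fold and a median of 0.44 (0.24 GC-adjusted). CDC20, an activator of the anaphase-promoting complex, had 47.1, 32 and 57.0, and WEE1 had 8.77, 9.36 and 15.1.

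Inhibitors of cyclin-dependent kinases were divided in direction. Among 28 measured inhibitors and quiescence genes 14 were higher, and 6 were at least 2-fold lower against 1 higher. After GC adjustment 10 of 27 were higher, with a median of -0.21. CDKN1C, the inhibitor p57, had RPKM of 1.94, 2.96 and 0.274, CDKN2B, the inhibitor p15, had 4.21, 6.32 and 1.66, and FOXO4, a transcription factor of resting cells, had 3.02, 4.91 and 1.12. CDKN1A, the inhibitor p21, had 49.6, 42.5 and 53.2, so this abundant inhibitor did not follow CDKN1C. CDKN2A, also on the list, had 119, 129 and 132 for the 1 transcript chosen. Clustered histone genes, most of whose mRNAs lack a poly(A) tail, were lower in 8 of 10 measured members of 58 listed, with a median of -0.59. With no filter on low values 42.86% of the members were higher and the median was -0.04, so this direction depends on the filter. HIST1H1C had 10.5, 18 and 5.24 and HIST1H2BK had 7.94, 20.2 and 9.02. Some histone genes are near-identical, so their values are uncertain.

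Immediate early genes and genes of ERK feedback, which are induced by and dampen growth factor signalling, held many large differences, nearly all of them higher values in siCDCA3-2. Of 31 measured members 21 were higher in siCDCA3-2, 14 were at least 2-fold higher and 1 was 2-fold lower, with a median of 0.76 (0.44 GC-adjusted). AREG, the EGF receptor ligand amphiregulin, had RPKM of 24.4, 5.61 and 24.1, a ratio of 4.30 (3.98 to 4.65), so siNC and siCDCA3-2 were at like levels. DUSP5, a phosphatase of ERK, had 3.09, 2.07 and 10.1, and IER3 had 96.8, 32.9 and 89.6. FOS, the founding AP-1 member, was the 2-fold lower gene (23.8, 28.6 and 12.7), and JUNB, the most abundant member, had 106, 73.1 and 55.8. FOS is named after its value was seen, as are the next genes. The ligands HBEGF (15.3, 4.01 and 12.3) and EREG (11.9, 3.05 and 11.4) had the pattern of AREG, and the ERK phosphatase DUSP6 (7.18, 3.12 and 12.8) and the feedback inhibitor SPRY2 (4.35, 3.40 and 9.12) that of DUSP5. DUSP4, also an ERK phosphatase, had 6.72, 14.5 and 9.88, and DUSP10 had 5.08, 8.10 and 5.74.

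The AP-1 core TGANTCA was found in 6.98% of the promoters of 2-fold higher genes with a sequence (401), in 6.16% of those of 2-fold lower genes (276) and in 3.51% of all, so both sets had a similar share. MT2A, FST and SLC7A8, all among the top 15 higher genes, had a match. The promoters of MMP1, CCND1, FOSL1, SLC7A11, UBE2V2 and GGCT were not analysed here. The 120 bases before the start site of MT2A (chr16:56608464-56608583, plus strand) and the 170 before that of FST (chr5:53480459-53480628, plus strand) are shown with the match in capitals.
MT2A: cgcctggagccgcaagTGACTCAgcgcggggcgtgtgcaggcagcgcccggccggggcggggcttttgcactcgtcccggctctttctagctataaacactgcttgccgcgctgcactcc
FST: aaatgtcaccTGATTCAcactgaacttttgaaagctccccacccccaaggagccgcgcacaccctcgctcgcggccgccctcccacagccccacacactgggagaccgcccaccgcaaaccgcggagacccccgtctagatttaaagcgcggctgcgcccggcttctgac
The match began 104 bases before the start site of MT2A and 160 bases before that of FST. All 4 measured metallothioneins were higher in siCDCA3-2, also under each scaling tried, from MT1F (15.3, 7.91 and 12.5) to MT2A. Their sequences are alike, and reads shared between them make single values uncertain.

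MHC class I and the genes that load it with peptide were lower in siCDCA3-2, and their median as deposited was the lowest of the lists. Of 21 measured members 3 were higher, 11 were at least 2-fold lower and 0 were 2-fold higher, with a median of -1.01 (-0.94 GC-adjusted). B2M, the light chain of class I, had RPKM of 264, 441 and 208, a ratio of 2.12 in favour of siCDCA3-1 (2.09 to 2.15). HLA-B had 23.7, 34.6 and 7.48, a ratio of 4.63 (4.40 to 4.88). PSMB9 and PSMB10, interferon-inducible catalytic subunits of the immunoproteasome, had 14.8, 16.7 and 3.39 and 14.0, 24.8 and 7.79. All of these were lowest in siCDCA3-2 and highest in siCDCA3-1. HLA-E, a class I gene named after its value was seen, had 16.4, 13.6 and 11.6. HLA genes are polymorphic and similar to each other, so the split of reads between them is uncertain. The proteasome subunits of the housekeeping list, above, stood in the opposite order.

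Genes induced by interferons were lower in siCDCA3-2 in 31 of 44 measured members of 69 listed, 8 of them past 2-fold and 0 in the other direction. The median was -0.39, and -0.57 after GC adjustment. GBP1 and GBP2, guanylate-binding proteins that act on intracellular pathogens, had RPKM of 3.38, 10.6 and 0.565 and of 5.50, 12.6 and 0.545. UBE2L6, a conjugating enzyme of ISG15, had 16.4, 20.9 and 2.85, a ratio of 7.34 (6.71 to 8.05). IFITM3, a membrane protein that restricts virus entry, had 70.1, 73.1 and 39.3. For GBP1 and GBP2 siNC was intermediate, while for UBE2L6 and IFITM3 it lay near siCDCA3-1. Other interferon-related families, picked after their values were seen, held APOL1 (2.02, 4.19 and 0.481) and the cytidine deaminase APOBEC3C (27.5, 33.5 and 9.21), while APOBEC3B was at 8.54, 7.95 and 8.95.

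The interferon-stimulated response element, searched as GAAA, any 2 bases and GAAA, was in 47.4% of 38 promoters of the interferon list, in 41.2% of 17 of the MHC list, in 6.16% of 2-fold lower genes, in 0.249% of 2-fold higher genes (1 of 401) and in 2.28% of all 8381. The 2-fold lower genes with a match numbered 17, and the lists above contribute to them, so these shares are not independent of each other. The 150 bases before the start sites of GBP1 (chr1:89065209-89065358, minus strand), of complement factor B, CFB (chr6:31945945-31946094, plus strand), and of B2M (chr15:44711367-44711516, plus strand) show the element in capitals, on the opposite strand in GBP1 and CFB. In B2M the capitals hold 2 overlapping matches.
GBP1: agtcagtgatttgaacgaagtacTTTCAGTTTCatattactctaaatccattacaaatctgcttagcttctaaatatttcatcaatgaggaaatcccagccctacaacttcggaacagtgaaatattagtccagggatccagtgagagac
CFB: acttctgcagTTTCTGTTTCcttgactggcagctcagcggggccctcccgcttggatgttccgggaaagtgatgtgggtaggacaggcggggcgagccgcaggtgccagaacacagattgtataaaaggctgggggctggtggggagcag
B2M: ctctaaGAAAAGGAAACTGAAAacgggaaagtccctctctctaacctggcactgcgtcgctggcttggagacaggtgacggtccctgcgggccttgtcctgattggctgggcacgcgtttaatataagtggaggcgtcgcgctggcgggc

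NF-kB targets and cytokines held the largest lower values and some higher ones. Of 42 measured members 11 were higher, 14 were at least 2-fold lower and 5 at least 2-fold higher, with a median of -0.57 (-0.62 GC-adjusted). CFB, a component of the alternative complement pathway, had RPKM of 9.90, 12.3 and 0.310, a ratio of 39.8 in favour of siCDCA3-1 (33.4 to 47.7). Complement C3, named with the next genes after the values were seen, had 128, 195 and 58.4, and the classical pathway protease C1S, which is not on the list, had 1.80, 3.57 and 0.119. The acute phase protein SAA1 had 48.0, 70.8 and 13.4, PI3, the elastase inhibitor elafin, had 35.8, 28.5 and 4.62, and TNFAIP2 had 135, 137 and 25.3. All of these were lowest in siCDCA3-2. SAA1 has a near-identical neighbour, SAA2, so its level is uncertain. Some cytokines were instead lowest in siCDCA3-1: IL1A had 65.6, 13.6 and 31.0, IL1B had 105, 30.8 and 51.8, and CXCL8 had 92.7, 33.4 and 40.7. The chemokine family as a whole was lower in siCDCA3-2 in 5 of 8 measured genes, with 2 past 2-fold lower and 1 past 2-fold higher. NFKBIA, the inhibitor induced by NF-kB itself, had 104, 70.1 and 47.2.

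The NF-kB sequence, searched as GGG, any 2 bases and TTTCC, was in 37.5% of 32 promoters of that list, in 4.35% of 2-fold lower genes, in 1.75% of 2-fold higher genes and in 2.11% of all. ELF3, an epithelial ETS factor listed below with the simple epithelium genes, was among the lower genes with a match. The last 120 bases before its start site (chr1:202010467-202010586, plus strand) hold the sequence on the opposite strand, in capitals, beginning 88 bases before the start.
ELF3: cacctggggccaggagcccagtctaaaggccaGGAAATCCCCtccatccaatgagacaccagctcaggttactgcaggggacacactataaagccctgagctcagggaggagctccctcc

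**Figure D4:**
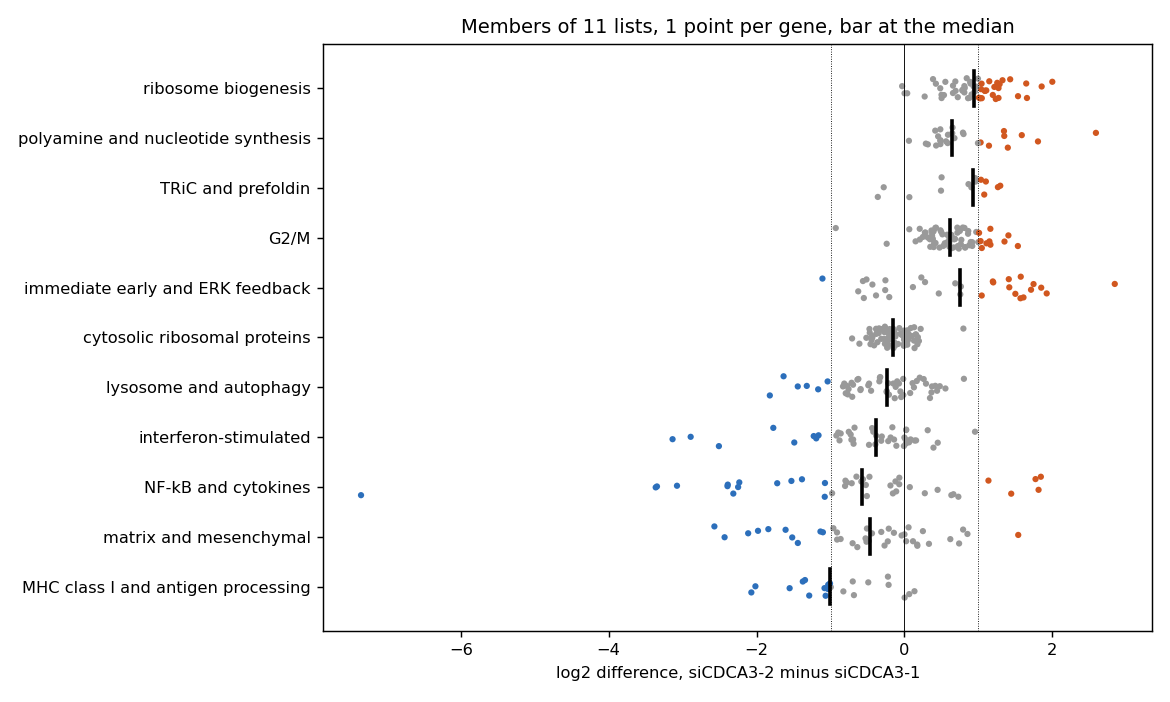
Each point is 1 measured gene of 11 lists, placed by its log2 difference (siCDCA3-2 minus siCDCA3-1), with a black bar at the list's median and colour for genes past 2-fold (dotted lines). Ribosome biogenesis lies almost wholly to the right of 0, cytosolic ribosomal proteins cluster near -0.15, and S100A8 is the far left point of the NF-kB list at -7.35.

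Extracellular matrix and mesenchymal genes were lower in siCDCA3-2 in 27 of 40 measured members, 10 of them past 2-fold against 1 higher, with a median of -0.46 before and after GC adjustment. FN1, fibronectin (NM_212482.2, GRCh38 chr2:215360865-215436068), had RPKM of 60.8, 158 and 25.8, a ratio of 6.13 in favour of siCDCA3-1 (6.06 to 6.20). COL12A1, a fibril-associated collagen, had 65.6, 80.7 and 17.9, and LOXL4, a lysyl oxidase that cross-links collagen, had 28.8, 28.5 and 4.46. FN1 was highest in siCDCA3-1 with siNC between, whereas for LOXL4 siCDCA3-2 alone was low. Collagens were lower in 11 of 13 measured genes, and in at least that many under each scaling tried. COL1A1, also a fibroblast marker, had 6.96, 8.33 and 2.26, and the fibroblast marker LUM had 0.123, 1.47 and 0.00294, under the filter. COL1A2 and COL3A1, which fibroblasts make in quantity, were at 0.0219 or below in all libraries.

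Matrix proteases and their inhibitors were mixed, with 13 of 28 higher, 3 past 2-fold higher and 7 lower. Against MMP1 stood MMP28, epilysin, with RPKM of 23.3, 15.6 and 2.01, while MMP14, the most abundant, had 135, 65.8 and 61.7. IGF-binding proteins were lower in 4 of 4 measured genes under each scaling, among them IGFBP6 with 29.7, 36.7 and 11.9. FGFBP1, which releases FGF from the matrix, had the opposite order with 7.49, 3.89 and 15.3, as did the receptor kinase AXL with 16.0, 22.7 and 40.9. YAP and TGF-beta targets were near the background share, with 20 of 34 higher (16 of 34 under median-of-ratios scaling) and a median of 0.17 that was -0.01 after GC adjustment. ID1, a target of BMP signals, had 342, 323 and 132, and F3, tissue factor, had 9.46, 7.85 and 24.4. Of 20 measured integrins 11 were higher (9 of 20 under TMM scaling) and 2 were 2-fold lower, and ITGB4, the most abundant, had 144, 104 and 113.

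Lysosome and autophagy genes were lower in siCDCA3-2 in 38 of 53, 6 of them past 2-fold and 0 in the other direction, with a median of -0.24 (-0.23 GC-adjusted). CTSD, cathepsin D, had RPKM of 239, 380 and 107, a ratio of 3.56 (3.51 to 3.60), and CTSB, cathepsin B, had 23.4, 25.3 and 8.66. PSAP, the precursor of the saposins, had 92.8, 147 and 64.9. These lysosomal proteins were highest in siCDCA3-1. Ferritin stood with them: FTH1, the heavy chain that stores iron, had 1338, 2670 and 719, a ratio of 3.71 (3.69 to 3.74), and FTL, the light chain, had 388, 543 and 362. The wider list of NRF2 targets was not one-sided (18 of 28 higher, and 12 of 28 under TMM scaling). SLC7A11, given above, is also a member. FTH1 has processed pseudogenes, so its reads may be shared.

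Basal and squamous epithelial genes were higher in 15 of 27, near the 57.8% of all measured genes, with 6 past 2-fold higher and 3 lower, and a median of 0.31 that was 0.04 after GC adjustment. SPRR1B, of the cornified envelope, had RPKM of 15, 3.50 and 13.2, LAD1, a hemidesmosome-associated protein, had 23, 10.7 and 30.5, and JUP, plakoglobin, had 119, 150 and 55.4. Simple and urothelial epithelium genes were lower in 18 of 30, with 5 past 2-fold lower and 2 higher and a median of -0.31 (-0.21 GC-adjusted). ELF3 had 15, 54.0 and 7.89, UPK3B, a uroplakin, had 4.35, 6.47 and 0.651, and EHF, an ETS factor of epithelia, had 37.3, 38.1 and 13.6. ELF3 was above the other libraries in siCDCA3-1, while EHF and UPK3B were below them in siCDCA3-2. In the S100 family, 12 genes measured, 8 were lower, and S100A10 went the other way with 78.5, 97.3 and 143.

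Metabolic lists showed smaller and mixed differences. Cholesterol synthesis and uptake was balanced (15 of 32 higher) but held opposite extremes: HMGCS1, an enzyme of the sterol pathway, had RPKM of 3.32, 6.91 and 22.5, while the sterol exporters ABCA1 and ABCG1 had 1.76, 7.34 and 0.428 and 4.87, 4.54 and 0.501. The most abundant members, FDPS and FDFT1, were 1.11 and 1.01 times as high in siCDCA3-1 as in siCDCA3-2. Among fatty acid genes FADS2, a desaturase, had 43.9, 70.8 and 36 and PLIN2, which coats lipid droplets, had 13.4, 13.7 and 35.2. In glycolysis and hypoxia 22 of 36 were higher (61.1%, near the 57.8% of all measured genes), and 17 of 36 under median-of-ratios scaling. ENO1 was at 392, 304 and 596 and the hypoxia and stress gene NDRG1 at 34.5, 43.5 and 11.1.

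The amino acid response list was higher in siCDCA3-2 in 29 of 43 (67.4%, against 57.8% of all measured genes). Under TMM and median-of-ratios scaling 25 of 43 were higher. As deposited 4 were past 2-fold higher, and the median was 0.25 (0.23 GC-adjusted). MTHFD2, of mitochondrial folate metabolism, had RPKM of 51.0, 7.23 and 21.8, and PSAT1, of serine synthesis, had 38.4, 3.09 and 9.44. For these genes siNC lay above both knockdown libraries, which differed from each other by ratios of 3.01 (2.86 to 3.18) and 3.06 (2.82 to 3.32). SLC7 amino acid carriers were higher in 5 of 5 measured genes under each scaling tried, SLC7A5 being the most abundant with 503, 198 and 245. ER chaperones and secretion were higher in 28 of 44 (63.6%, against 57.8% of all measured genes), but in 20 of 44 under TMM and median-of-ratios scaling. P4HB was at 186, 179 and 159 and SEC61G at 33.6, 25.7 and 57.0.

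Stress and survival genes were mixed. Of 25 measured p53 targets 11 were higher, and GDF15, a stress-induced cytokine, had RPKM of 16.1, 4.34 and 0.214. Of 15 BCL2 family genes 6 were higher (2 of 15 under TMM scaling), 4 were 2-fold lower and 1 was 2-fold higher. The death-promoting members BMF (8.71, 17.2 and 2.81), BIK (18.8, 19.1 and 6.37) and BBC3 (4.21, 2.65 and 0.446) were lowest in siCDCA3-2, and so was the protective BCL2L1, with 32.1, 48.2 and 23.5. MCL1, also protective, had 29.2, 27.2 and 33.2. In the Wnt list 13 of 26 were higher, and the secreted inhibitor DKK1 had 0.667, 3.53 and 13.8, lowest in siNC. WNT7A had 30.3, 19.4 and 41.6.

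Large chromatin proteins were lower in siCDCA3-2 in 34 of 47, with 2 past 2-fold and a median of -0.23 (-0.25 GC-adjusted). BAZ2A, of a nucleolar remodelling complex, had RPKM of 7.02, 10.1 and 2.72. Actin cytoskeleton genes were near balance (19 of 43 higher, median -0.14), with ACTB at 856, 1319 and 1132 and TMSB4X, which sequesters actin monomers, at 816, 1084 and 532. Of 15 genes of the microRNA and RNA interference machinery, which siRNAs use, 11 were higher and 0 were 2-fold apart. Under TMM scaling 6 of 15 were higher, and after GC adjustment 7 of 15. DICER1 had 1.60, 2.78 and 5.80 and AGO1 had 3.31, 3.74 and 6.41, both lowest in siNC.

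**Figure D5:**
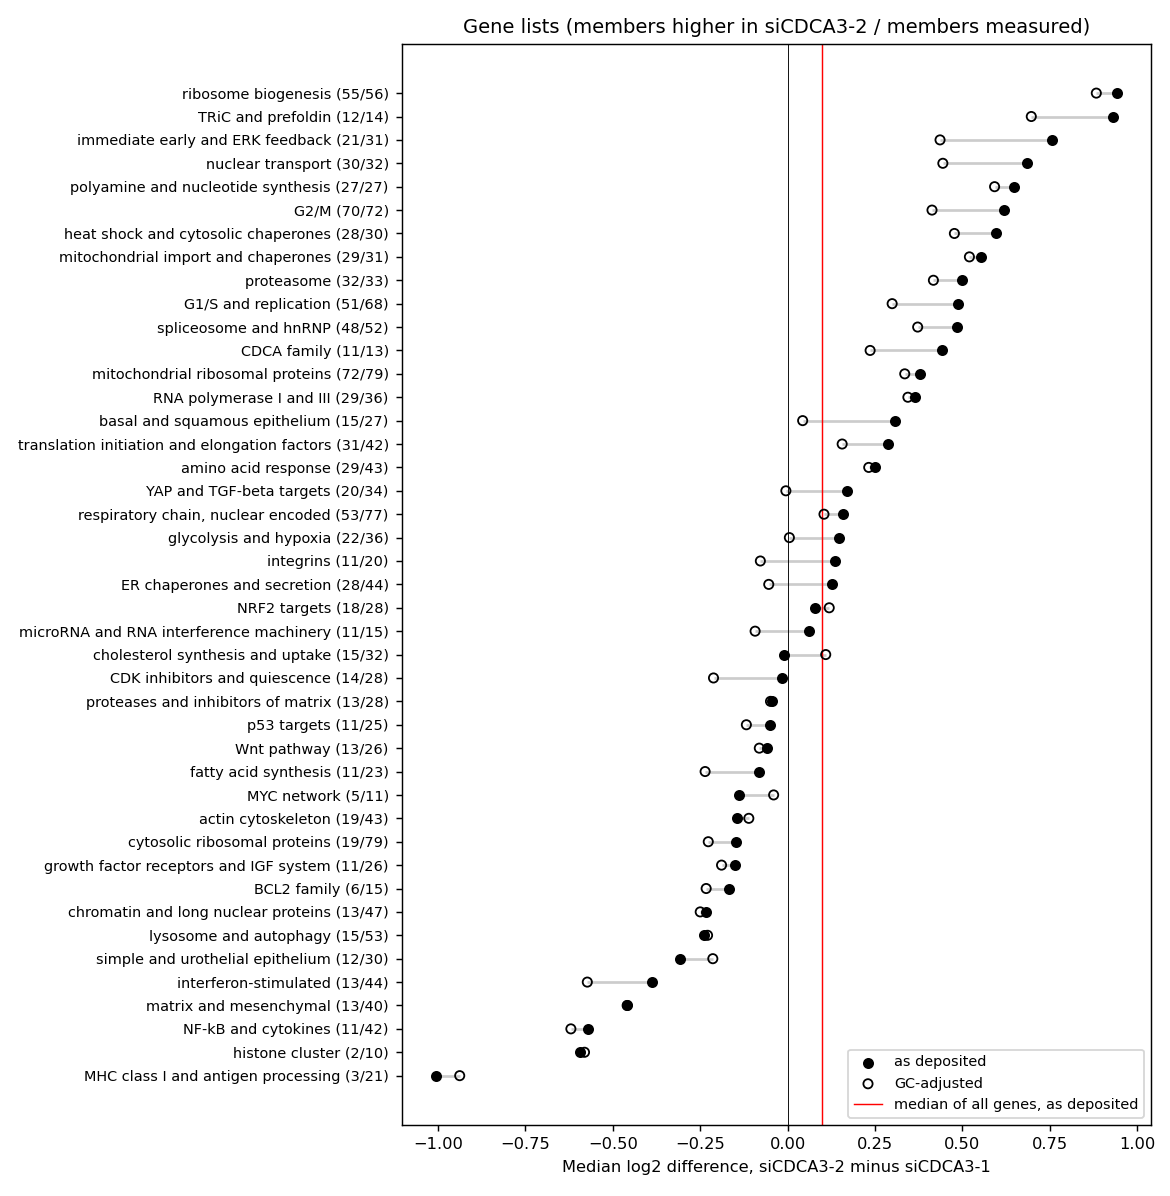
Median log2 difference (siCDCA3-2 minus siCDCA3-1) of the measured members of each gene list as deposited (filled) and GC-adjusted (open), with the number of members higher over the number measured, a black line at 0 and a red line at the all-gene median of 0.10. Ribosome biogenesis is at the top at 0.94 and MHC class I at the bottom at -1.01.

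The control library lay between the knockdown libraries for most genes that set them apart. Its RPKM was between the others in 450 of the 498 higher genes (90.4%) and in 304 of the 378 lower genes (80.4%), against 4929 of all 10153 (48.5%). A gene with widely spaced values leaves more room between them, so these shares are a description. Nearness was measured on the log2(RPKM + 1) scale. Of the lower genes, siNC was nearer siCDCA3-1 on that scale in 257 (68.0%) and above both knockdown libraries in 61. Of the higher genes, it was nearer siCDCA3-1 in 310 (62.2%) and below both in 26. Among all genes it was nearer siCDCA3-1 in 57.9%. DDX21, B2M and DUSP5 are examples with siNC in between, while for PSAT1 and MTHFD2 both knockdown libraries lay on the same side of siNC.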

How the data were processed

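Per the labels' protocols, ribosomal RNA was removed from total RNA of transfected 5637 cells and paired reads were made. Trimmomatic 0.36, FastQC, HISAT2 and HTSeq stand in the submitters' processing notes, with a human (hg38) and a mouse (mm10) build that have no stated role. Per the file headers, the deposited columns are a read count and an RPKM for each of 45006 RefSeq transcripts, with the transcript length. The authors computed RPKM from the count, length and a library total. Of the accessions, 98.6% matched RefSeq on GRCh38.p14, and 103 rows with symbols turned into dates were restored where the accession allowed. Differences used log2(RPKM + 1) with Python 3.11.15, and calls were at 2-fold. The arithmetic was checked on simulated data. edgeR 4.0.16 gave scaling factors only. GC content came from GENCODE transcripts for 96.8% of measured genes, in 20 bins.

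The members, comparison and 48 gene lists were chosen with earlier results of these data known. The GC adjustment, all 40 gene families and 10 motifs searched, the families and motifs described out of them, and the promoters shown were chosen after the values were seen. Named genes were CDCA3, MYBL2, the 15 largest differences in each direction with RPKM of at least 5 in the higher library, and in each list the 2 most abundant members and the 3 with the largest difference. Some of these are omitted for length or are not reported here, and others are marked as chosen after their values were seen.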

Additional observations from a re-analysis of the deposited data

How the results depend on the processing

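No paired analysis was possible because the comparison is between 2 libraries of the same group, and leaving out either one leaves no comparison. Genes at least 2-fold higher numbered 498 in the main setting, 294 under TMM scaling, 285 under median-of-ratios scaling, 903 with a pseudocount of 0.1, 294 after the GC adjustment (chosen after seeing the data), 1786 at 1.5-fold and 13 at 4-fold. Genes at least 2-fold lower numbered 378, and 609 with a pseudocount of 0.1, 228 with a mean RPKM of at least 5, 1065 at 1.5-fold and 59 at 4-fold. TMM scaling moved all genes toward lower values in siCDCA3-2, so none of the 378 lower genes could leave that set under it. After GC adjustment 254 of the 498 higher genes and 321 of the 378 lower genes stayed past 2-fold.

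The share of members higher in siCDCA3-2 stayed within an exact binomial interval of its main value in 438 of 472 results over 43 lists. That interval treats list members as independent and is wide for short lists, so staying within it was used as a label only. For the respiratory chain, whose main interval lay wholly above 50%, the share crossed to 48.05% under TMM and median-of-ratios scaling. The shares of ER chaperones, NRF2 targets, YAP and TGF-beta targets, glycolysis, integrins and RNA interference machinery also crossed 50% under 1 or more of the scalings, that of cholesterol synthesis after the GC adjustment and that of the MYC network with a mean RPKM of at least 5. Under both of these scalings it was 81.01% for mitochondrial ribosomal proteins, 76.67% for heat shock, 78.79% for proteasome, 80.77% for spliceosome, 13.64% for interferon-stimulated, 0% for MHC class I, 27.91% for actin, 45.45% for ER chaperones, 13.33% for BCL2 family, 42.86% for NRF2 targets and 12.77% for chromatin. Cytosolic ribosomal proteins were at 5.063% and 3.797%, and RNA interference machinery at 40% and 33.33%. Quantile normalization gave 49.37% for cytosolic ribosomal proteins and 13.64% for interferon-stimulated genes. A mean RPKM of at least 5 gave 12.9% for chromatin. The GC adjustment gave 90.28% for G2/M, 44.19% for ER chaperones and 15.22% for chromatin. For 219 named genes, 0 of 2370 results reversed a 2-fold difference. Most settings shift a difference by far less than 2-fold or cannot change its sign, so few of these results could have reversed. Genes that fell under 2-fold, as those named above after GC adjustment, are not counted as reversed. The causes of these shifts were not tested.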

Other observations

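Further families of genes were picked by name after the values were seen, and they are given as values. Clade B serpins, inhibitors of proteases that epithelia make, were lower in siCDCA3-2 in 6 of 10 measured genes. SERPINB3 had RPKM, in the order siNC, siCDCA3-1, siCDCA3-2, of 7.07, 12.4 and 0.963, and its near-identical neighbour SERPINB4, with which it may share reads, had 2.05, 4.20 and 0.218. SERPINB2, the plasminogen activator inhibitor PAI-2, was in the opposite order with 14.2, 13.1 and 25.9. Keratins were lower in 9 of 13 measured genes, and KRT13, of suprabasal epithelium, had 6.77, 7.97 and 2.48.

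DEAD-box RNA helicases were higher in siCDCA3-2 in 27 of 32 measured genes, but in 20 of 32 under TMM scaling and 19 after GC adjustment. Tubulins were higher in 11 of 15, with 2 past 2-fold in each direction. Claudins, the tight junction proteins, were higher in 6 of 6 measured genes and in 5 of 6 under TMM scaling, with 0 past 2-fold. V-ATPase subunits, which acidify lysosomes, were higher in 13 of 16 and in 12 of 16 under TMM scaling, unlike the lysosome list. Genes of the ZNF zinc finger family were higher in 99 of 216, in 73 of 216 under TMM scaling and in 60 of 211 after GC adjustment.

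By chromosome, the median log2 difference ran from -0.08 over 666 genes of chromosome 19, with a median GC content of 61.1%, to 0.32 over 327 genes of chromosome 4, with 43.3%. After GC adjustment the range was from -0.10 on chromosome X to 0.07 on chromosome 8.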
